A study of Mus musculus with 6 samples.

Results

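Liver transcripts of 10 efflux transporter genes were compared between mice lacking Mettl3 in hepatocytes and their floxed counterparts. The genes, Abcb11, Abcc2, Abcg2, Abcb4, Atp8b1, Abcb1a, Abcg5, Abcg8, Abcc3 and Abcc4, were chosen by name from the 54086 features of the deposited expression table, and all 10 were found. The Mettl3 protein is the catalytic subunit of the complex that writes N6-methyladenosine (m6A) into mRNA. HKO mice carry a hepatocyte-specific knockout of Mettl3 (n = 3), and Mettl3 flox/flox mice carry the loxP-flanked alleles (n = 3). All mice were 8 weeks old and fed normal chow, and RNA was taken from whole liver. The sources used here do not give the Cre driver, the deleted exons or the sex of the mice. Nor do the labels tie each library to its own mouse, and p-values therefore cover only the spread between these libraries.

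Hepatocytes face 2 kinds of outlet. At the canalicular membrane, ATP-driven pumps move bile salts, conjugated anions, phospholipid, sterols and drugs into bile against steep gradients. At the basolateral membrane, other pumps of the same superfamily return anions and bile acids to blood, a route known to gain weight when bile flow is blocked. Several of these genes are textbook targets of nuclear receptors, with FXR acting on the bile salt export pump gene and CAR, PXR and the antioxidant factor NRF2 acting on the multidrug resistance protein genes.

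Expression was deposited as FPKM, a fragment count divided by gene length and by a depth factor, so levels of different genes can be set side by side. Each library held 16529358 to 18556076 reads, as rebuilt from the FPKM. Differences are HKO minus flox/flox on the log2(FPKM + 1) scale from limma, which understates the change of low genes, and a gene was called at an adjusted p under 0.05 over the 11086 features that averaged 1 FPKM or more. Of these features 12.8% were called, 5.95% higher and 6.86% lower in HKO livers. Mettl3 itself had 2.45, 2.14 and 2.06 FPKM in HKO livers and 1.88, 2.17 and 1.98 FPKM in flox/flox livers (log2 difference 0.09, adjusted p = 0.582), so this gene-level value, which sums over all exons, did not check the genotype labels. The FPKM scale itself followed genotype: FPKM summed to 318212 to 360226 in HKO and 453837 to 542601 in flox/flox libraries. Rescaling every library to a common sum moved the median difference of all tested genes to 0.34, against -0.06 as deposited.

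Abcc4 and Abcb1a, the 2 least abundant of the 10, were the genes that rose in HKO livers, and no member fell. The other 8 did not pass the test. At an unadjusted p under 0.05 limma counted 4 members higher and 0 lower, where 14% of all tested features were higher and 19.8% lower. Voom on the rebuilt reads, which called 6.53% of all tested features higher and 7.67% lower, called 2 members higher and 0 lower. Its unadjusted counts were again 4 members higher and 0 lower, where 14.2% of all features were higher and 19.8% lower. All 10 members passed the filter on low values, but Abcc4 and Abcb1a passed it only through the HKO libraries, so that they could hardly have passed without differing. In 3 members, Abcc4, Abcb1a and Atp8b1, all HKO values lay above all flox/flox values, a pattern that 16.8% of tested features showed in this direction. No member showed the opposite pattern, which 24.7% of tested features did, and the groups overlapped in the other 7. The 10 differences split into 5 above and 5 below 0, with a median of 0.11 against -0.06 over all tested features.

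The levels spanned a 56.4-fold range of means in HKO livers and a 428-fold range in flox/flox livers. In HKO livers the order of mean FPKM ran Abcb11, Abcc2, Abcc3, Abcg5, Abcb4, Abcg8, Atp8b1, Abcg2, Abcc4 and Abcb1a. Neighbours whose replicate values overlapped there were Abcb11 and Abcc2, Abcg5 and Abcb4, Abcb4 and Abcg8, and Abcc4 and Abcb1a. In flox/flox livers the order was Abcb11, Abcc2, Abcg5, Abcc3, Abcg8, Abcb4, Abcg2, Atp8b1, Abcb1a and Abcc4. Overlapping neighbours there were Abcb11 and Abcc2, Abcg5 and Abcc3, Abcc3 and Abcg8, Abcg2 and Atp8b1, and Abcb1a and Abcc4. Over all 6 libraries Abcb11 ranked 378th of the tested features by level and Abcb1a ranked 10533rd.

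**Figure D1:**
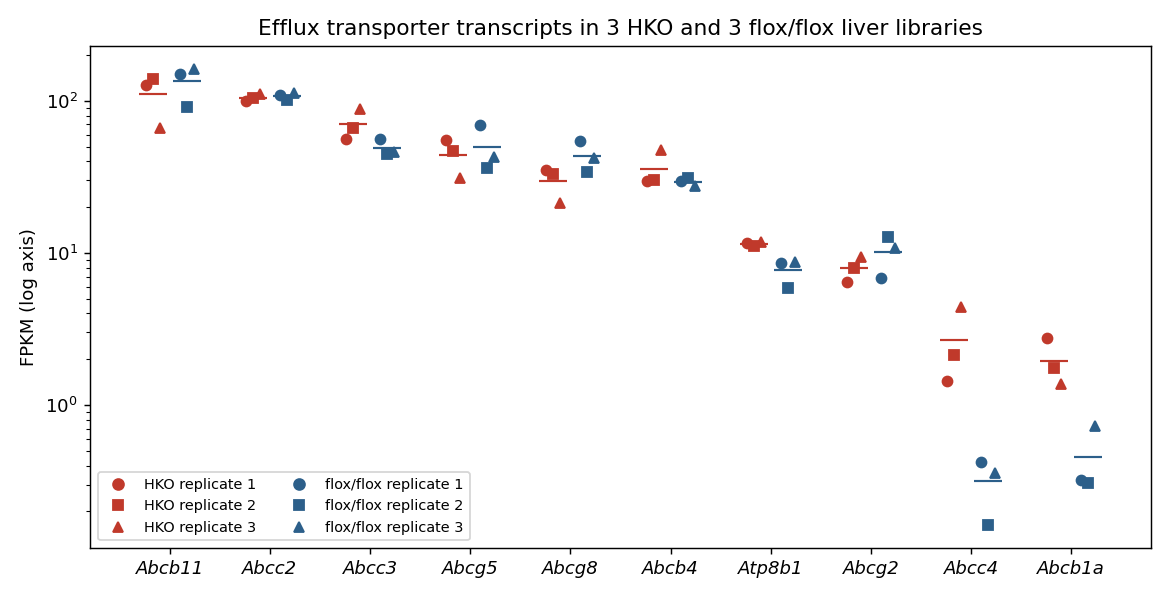
FPKM on a log axis of the 10 efflux transporter genes in each library, HKO points left of flox/flox points, a shape for each replicate number and bars at the group means. Abcc4 and Abcb1a lie lowest and their groups are apart, with Abcc4 between 1.45 and 4.43 FPKM in HKO and between 0.163 and 0.424 FPKM in flox/flox livers, while Abcb11 and Abcc2 lie between 66.7 and 163 FPKM in both groups and overlap.

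Abcc4 encodes a basolateral pump of cyclic nucleotides, conjugated steroids and bile acids. Its level was 1.45, 2.14 and 4.43 FPKM in HKO livers, resting on 179, 250 and 632 reads. In flox/flox livers it was 0.424, 0.163 and 0.360 FPKM, on 40, 16 and 35 reads. Every HKO library lay above every flox/flox library, and HKO replicate 3 was the highest. The means were 2.68 ± 1.56 FPKM in HKO and 0.316 ± 0.136 FPKM in flox/flox livers (SD, n = 3 each), a ratio of 8.47. The log2(FPKM + 1) difference was 1.40 (95% interval 0.71 to 2.10, limma adjusted p = 0.0323). It was 2.65 with a pseudocount of 0.1 and 3.05 by voom, where low genes are compressed less. The call held without HKO replicate 3 (adjusted p = 0.047) and without flox/flox replicate 1 (0.049), and was lost without any one of the other 4 libraries (0.061 to 0.086) and without the filter on low values (0.069).

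The 250 bases before the start of Abcc4 (GRCm38.p6, chr14:118706220-118706469, minus strand, RefSeq) are shown because this gene had the largest difference of the 10. Capitals mark a match on the reverse strand to TGACNNNGC, the core of the antioxidant response element read by NRF2, whose first base lies 25 bases before the start:

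Abcc4: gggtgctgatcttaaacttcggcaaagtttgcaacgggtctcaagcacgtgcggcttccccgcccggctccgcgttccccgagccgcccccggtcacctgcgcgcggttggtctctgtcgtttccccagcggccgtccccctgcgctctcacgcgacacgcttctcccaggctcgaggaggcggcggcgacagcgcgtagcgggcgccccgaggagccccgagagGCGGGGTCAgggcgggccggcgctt

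This core was found in 3 of the 12 promoter windows available for 8 of the members, counting both strands, namely in Abcc2 and in both windows of Abcc4, against 10.2% of 32851 windows in the genome. DR4-type repeats, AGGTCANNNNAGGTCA with up to 2 mismatches, were found in 0 of the 12 and in 2.57% of all windows. For Abcb1a the RefSeq start, at 8567091 on chromosome 5, lies well upstream of the deposited gene, which begins at 8660077. Its window therefore does not adjoin the measured gene. Such matches describe letters only and are not evidence of binding.

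Abcc3, the other basolateral pump, exports glucuronides and bile acids to blood and was far more abundant. It had 56.0, 66.1 and 88.8 FPKM in HKO livers and 56.1, 44.7 and 46.2 FPKM in flox/flox livers. HKO replicate 1 lay just below flox/flox replicate 1, so the groups overlapped by this one pair, and HKO replicate 3 was again the highest. The means were 70.3 ± 16.8 FPKM in HKO and 48.98 ± 6.17 FPKM in flox/flox livers, and the difference of 0.49 (95% interval 0.03 to 0.96) did not pass the test (limma adjusted p = 0.1298). It passed when libraries were rescaled to a common sum over all features (0.99, adjusted p = 0.017), a scaling that called 28.2% of all tested features higher, or to a sum without the 20 most abundant features (0.89, adjusted p = 0.023), which called 21.3% higher. Relative to the median of all tested genes the difference was 0.56 as deposited and 0.65 and 0.63 under these scalings.

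Abcb1a encodes P-glycoprotein, the canalicular pump of hydrophobic drugs and cations, which capillary endothelium and lymphocytes express as well. It had 2.75, 1.75 and 1.37 FPKM in HKO livers, on 292, 175 and 168 reads. Flox/flox livers had 0.321, 0.309 and 0.731 FPKM, on 26, 26 and 61 reads. The groups did not overlap, and flox/flox replicate 3 came closest to the HKO range. Means were 1.96 ± 0.713 FPKM in HKO and 0.454 ± 0.240 FPKM in flox/flox livers (SD, n = 3 each), a ratio of 4.32, and the log2(FPKM + 1) difference was 1.01 (95% interval 0.50 to 1.52, limma adjusted p = 0.0332). With a pseudocount of 0.1 it was 1.92, and by voom 2.14. The call was lost when any one of the 6 libraries was left out (adjusted p 0.052 to 0.088) and without the filter on low values (0.069).

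Mice have a close copy, Abcb1b, also a drug pump. Abcb1b stayed under the filter, at 0.116, 0.0686 and 0.107 FPKM in HKO livers and 0.136, 0.359 and 0.0987 FPKM in flox/flox livers. The ratio of Abcb1a to Abcb1b was 23.7, 25.5 and 12.9 in HKO libraries and 2.37, 0.862 and 7.41 in flox/flox libraries, without overlap. However, Abcb1b rested on only 10 to 44 reads per library, and Abcb1a passed the filter only through the HKO libraries. The Abcb1b mean was lower in HKO than in flox/flox livers (0.097 against 0.198 FPKM), which adds to the difference of this ratio. Of the 50-base windows of Abcb1a transcripts 17.6% occur in other genes, 889 of 961 of these in Abcb1b, so the division of reads between the copies is uncertain. The longest coding stretch identical in both, 338 bases on chromosome 5 (GRCm38), shows the extent of this sharing. It starts at coding base 1357 of Abcb1a and at coding base 1366 of Abcb1b, each with 3828 coding bases, and its first 300 bases are printed:

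Abcb1a and Abcb1b: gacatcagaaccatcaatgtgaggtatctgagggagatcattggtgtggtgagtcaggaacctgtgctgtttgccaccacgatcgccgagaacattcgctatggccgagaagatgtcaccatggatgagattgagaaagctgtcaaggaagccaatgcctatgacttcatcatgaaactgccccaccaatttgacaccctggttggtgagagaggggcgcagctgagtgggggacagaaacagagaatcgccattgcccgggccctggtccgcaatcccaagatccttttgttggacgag

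Annotated exons of Abcb1a also share 553 bases, 10.1% of their length, with an unclassified transcript on the opposite strand, and whether the libraries were stranded is not stated in the labels.

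Among the canalicular pumps of bile acids and organic anions none passed the test. Abcb11 encodes the bile salt export pump, which drives bile salt secretion. It had 126, 138 and 66.7 FPKM in HKO livers and 151, 91.4 and 163 FPKM in flox/flox livers. HKO replicate 3 was the lowest and flox/flox replicate 2 lay within the HKO range. The means were 111 ± 38.4 FPKM in HKO and 135 ± 38.2 FPKM in flox/flox livers. The log2 difference was -0.31 (limma adjusted p = 0.557), and its 95% interval of -1.12 to 0.50 includes changes larger than this in either direction.

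Abcb11 is a known target of FXR, so the 250 bases before its start (GRCm38.p6, chr2:69342617-69342866, minus strand, RefSeq) are shown. Capitals mark matches to the inverted repeat AGGTCANTGACCT with up to 2 mismatches on either strand. The first lies 94 bases before the start with 2 mismatches and the second 63 bases before it with 1 mismatch:

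Abcb11: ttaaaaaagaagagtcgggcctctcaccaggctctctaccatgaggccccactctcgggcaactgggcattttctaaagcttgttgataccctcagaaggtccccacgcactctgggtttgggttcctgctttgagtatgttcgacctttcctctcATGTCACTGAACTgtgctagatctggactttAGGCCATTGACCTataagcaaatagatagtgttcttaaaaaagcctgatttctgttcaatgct

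Of the 12 member windows only this one held such a match, and 0.959% of all 32851 windows did. Nr1h4, the FXR gene, was lower in HKO livers, at 41.1 ± 4.76 FPKM against 73.2 ± 18.0 FPKM in flox/flox livers (log2 difference -0.80, limma adjusted p = 0.044). This call held in 6 of 17 alternatives.

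Abcc2 encodes the canalicular pump of bilirubin glucuronides and glutathione conjugates. It had 99.8, 104 and 111 FPKM in HKO livers and 110, 101 and 112 FPKM in flox/flox livers, ranges that lay almost on top of each other. Means were 105 ± 5.90 FPKM in HKO and 108 ± 5.78 FPKM in flox/flox livers, and the log2 difference was -0.03 with a 95% interval of -0.31 to 0.24 (limma adjusted p = 0.865). On a common sum it was 0.46 (adjusted p = 0.044), 0.12 above the median of all tested genes on that scale.

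Abcg2, the breast cancer resistance protein gene, encodes a pump of urate, porphyrins and sulphated steroids. It had 6.40, 7.94 and 9.38 FPKM in HKO livers and 6.85, 12.8 and 10.8 FPKM in flox/flox livers. The groups overlapped through flox/flox replicate 1. The difference of -0.30 (95% interval -0.86 to 0.26) did not pass the test (limma adjusted p = 0.409).

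Abcb4 and Atp8b1 act on canalicular membrane lipids. Abcb4 moves phosphatidylcholine to the outer leaflet, from which bile salts take it up, and had 29.8, 30.0 and 47.8 FPKM in HKO livers against 29.5, 31.1 and 27.4 FPKM in flox/flox livers. Of the 3 HKO libraries 2 lay within the flox/flox range and replicate 3 stood above it. The log2 difference was 0.25 (95% interval -0.23 to 0.72, limma adjusted p = 0.420).

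Atp8b1, a flippase that returns phospholipid to the inner leaflet, had 11.6, 11.1 and 11.9 FPKM in HKO livers and 8.62, 5.90 and 8.66 FPKM in flox/flox livers. The groups did not overlap, and the HKO libraries were tightly grouped. The means were 11.5 ± 0.397 FPKM in HKO and 7.73 ± 1.58 FPKM in flox/flox livers, and the difference of 0.54 (95% interval 0.17 to 0.90) missed the threshold (limma adjusted p = 0.0638). It passed after quantile normalization (0.62, adjusted p = 0.048), which called 5.86% of all tested features higher, and on both common sums (0.99 and 0.90, adjusted p = 0.008 and 0.010), and relative to the median of all tested genes it was 0.60 as deposited and 0.65 and 0.64 on those sums. Tmem30a encodes the subunit that P4-type flippases such as Atp8b1 need to leave the endoplasmic reticulum. It was lower, at 32.0 ± 1.33 FPKM in HKO and 46.6 ± 4.79 FPKM in flox/flox livers (log2 difference -0.52, limma adjusted p = 0.039), though the call was kept in only 5 of 17 alternatives and in none of the 4 other scalings. Tmem30a falls outside the naming rule and was chosen after its values were seen.

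Abcg5 and Abcg8 encode the partners of one pump that exports cholesterol and plant sterols into bile. Abcg5 had 55.0, 46.8 and 30.9 FPKM in HKO livers and 69.1, 36.4 and 42.6 FPKM in flox/flox livers, with overlapping ranges. Abcg8 had 35.1, 33.0 and 21.4 FPKM in HKO livers and 54.2, 34.2 and 42.1 FPKM in flox/flox livers. HKO replicate 3 was the lowest library for both genes, and for Abcg8 a single HKO library reached into the flox/flox range. The log2 differences were -0.14 for Abcg5 (95% interval -0.85 to 0.57, limma adjusted p = 0.774) and -0.53 for Abcg8 (95% interval -1.11 to 0.04, adjusted p = 0.171).

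The genes are transcribed away from each other, and 109 bases lie between their RefSeq starts at 84683011 (Abcg5, minus strand) and 84683121 (Abcg8, plus strand) on chromosome 17. This interval (GRCm38.p6, chr17:84683012-84683120) is shown on the plus strand because the genes start at its opposite ends:

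Abcg5-Abcg8 interval: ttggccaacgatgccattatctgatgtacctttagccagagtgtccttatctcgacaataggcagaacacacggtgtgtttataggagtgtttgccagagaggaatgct

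Although the mean of each gene was lower in HKO livers as deposited, the ratio of Abcg5 to Abcg8 within a library was higher there. It was 1.57, 1.42 and 1.44 in HKO libraries and 1.27, 1.06 and 1.01 in flox/flox libraries, without overlap (difference of log2 ratios 0.41, exact two-sided permutation p = 0.1, the smallest that 3 against 3 allows). A second annotated Abcg8 start makes the genes overlap, but the overlapping exons of opposite strands share only 82 bases, 3.02% of Abcg5 and 2.19% of Abcg8.

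**Figure D2:**
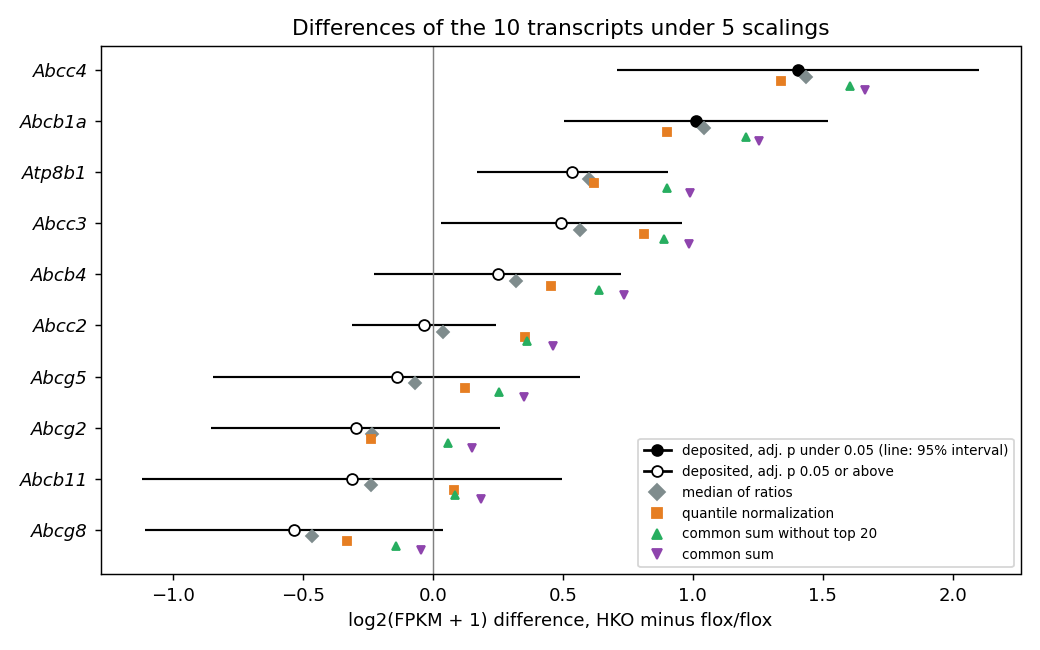
Differences in log2(FPKM + 1), HKO minus flox/flox, of the 10 members, as deposited (circles with 95% intervals from limma, filled where adjusted p was under 0.05) and under 4 other scalings (coloured points). Abcc4 and Abcb1a are filled and lie farthest right. The intervals of Abcb11, Abcc2, Abcg2 and Abcg5 span 0 and their estimates change sign with the scaling. Abcg8 stays below 0 under every scaling shown. The median of all tested genes, not drawn, was -0.06 as deposited and 0.34 and 0.26 on the common sums over all features and without the top 20.

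Ratios within a library do not depend on how libraries are scaled, so 6 were compared, with p-values adjusted over the 6. The basolateral pumps were set against canalicular Abcc2. The ratio of Abcc3 to Abcc2 was 0.561, 0.637 and 0.797 in HKO libraries and 0.510, 0.443 and 0.413 in flox/flox libraries. The ratio of Abcc4 to Abcc2 was 0.0145, 0.0207 and 0.0398 in HKO libraries and 0.00386, 0.00162 and 0.00322 in flox/flox libraries. Both ratios were higher in every HKO library than in any flox/flox library, with differences of 0.54 and 3.07 in log2. Abcc2 alone differed by -0.03, so these ratios mostly repeat the differences of Abcc3 and Abcc4. Of these, Abcc4 passed the filter only through the HKO libraries.

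Export was set against uptake by Abcb11 over Slc10a1, the sodium-dependent bile acid uptake carrier of the basolateral membrane. This ratio was 1.54, 1.15 and 0.631 in HKO libraries and 0.472, 0.246 and 0.484 in flox/flox libraries (difference of log2 ratios 1.44), again without overlap. Abcb11 alone was not called (log2 difference -0.31), while Slc10a1 fell (-1.74, limma adjusted p = 0.011), so the higher ratio mostly reflects less Slc10a1. The balance of Abcb4 to Atp8b1 was 2.57, 2.70 and 4.03 in HKO libraries and 3.43, 5.27 and 3.16 in flox/flox libraries, which overlapped (difference -0.34, exact permutation p = 0.4). The 5 ratios without overlap each had an exact permutation p of 0.1, the smallest possible here, and 0.12 after adjustment, so none could pass a threshold of 0.05. Of single tested features, 16.8% lay higher in HKO without overlap and 24.7% lower, and the share among ratios of genes was not counted. The numerator Abcb1a, like Abcc4, passed the filter only through the HKO libraries.

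**Figure D3:**
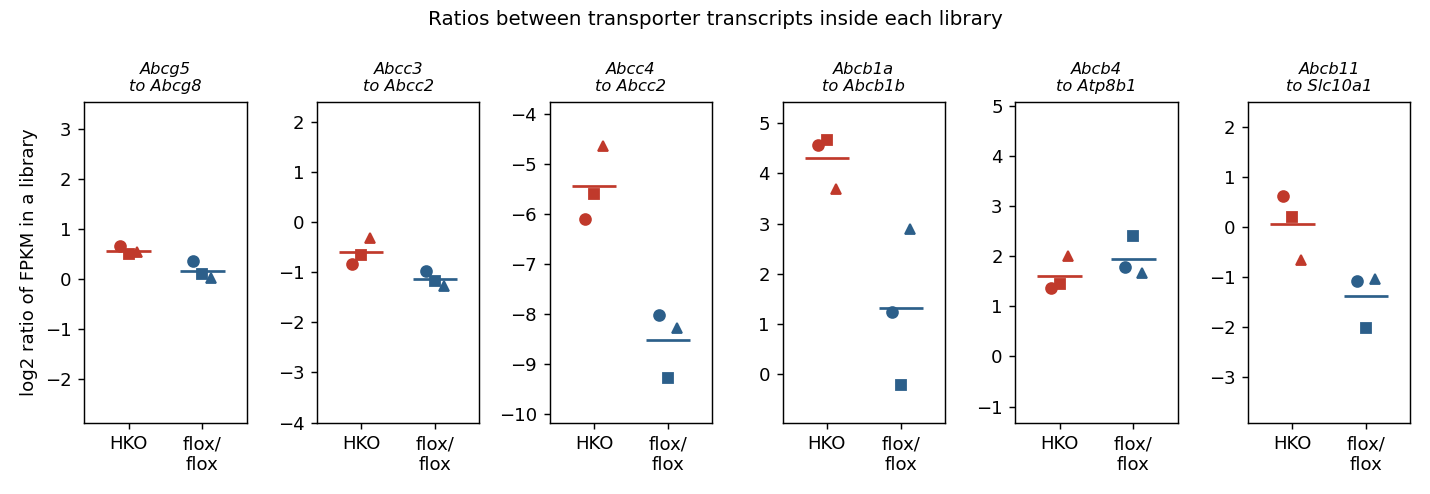
Ratios of FPKM within each library on log2 axes of equal span, HKO left of flox/flox, for 6 pairs of genes. All HKO points lie above all flox/flox points in 5 pairs, with the widest differences of group means (bars) for Abcc4 to Abcc2 and Abcb1a to Abcb1b, and the groups overlap for Abcb4 to Atp8b1. Of single tested features, 16.8% lay apart in this direction. Abcc4 and Abcb1a passed the filter on low values only through the HKO libraries.

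Genes with profiles most like those of the 2 that rose were ranked by the root mean square difference in log2(FPKM + 1) over the 6 libraries, after subtracting each gene's flox/flox mean. Closest to Abcb1a were Smc2 (0.109), Hmgb2 (0.116) and Scd2 (0.116). Smc2 encodes a condensin subunit, Hmgb2 a chromatin protein abundant in dividing cells and Scd2 a fatty acid desaturase, and Smc2 had 2.25, 1.65 and 1.41 FPKM in HKO and 0.185, 0.416 and 0.588 FPKM in flox/flox livers. Closest to Abcc4 were Limk2 (0.146), a kinase of cofilin, Fam110a (0.177) and Rtp4 (0.178), an interferon-induced gene. Smc2, Scd2 and Fam110a averaged under 1 FPKM in flox/flox livers and, like Abcc4 and Abcb1a, passed the filter only through the HKO libraries. Limk2, Fam110a and Rtp4 were, like Abcc4, highest in HKO replicate 3, a likeness for which the ranking chose them. Limk2 had 3.97, 3.96 and 7.32 FPKM in HKO and 1.43, 1.21 and 1.23 FPKM in flox/flox livers.

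Other genes of bile transport gave the setting of these values. Of 13 further efflux and canalicular transporter genes 9 were tested, 1 was higher and 0 lower by limma, with a median difference of -0.07 against -0.06 over all tested genes. The one called was Abcg1, an exporter of cellular cholesterol best known in macrophages, at 3.72 ± 0.595 FPKM in HKO and 1.12 ± 0.119 FPKM in flox/flox livers (log2 difference 1.15, adjusted p = 0.014). Among those untested for low level, chosen after their values were seen, Abcc1 had 0.397, 0.465 and 0.285 FPKM in HKO and 0.139, 0.0993 and 0.0958 FPKM in flox/flox livers. Slc51b, a subunit of the basolateral organic solute transporter, had 1.31, 0.541 and 0.379 FPKM in HKO and 0.191, 0.0919 and 0.0927 FPKM in flox/flox livers, on at most 18 reads. Its partner Slc51a was listed at 0 in 5 of the 6 libraries. Of the 13 genes 3, Abcg1, Abcc1 and Slc51b, lay higher in HKO without overlap and 2 lower. Abcc1 and Slc51b were untested, whereas the shares of 16.8% higher and 24.7% lower cover tested features only. The lower 2, not called, were Abcc6 (38.7 ± 7.49 FPKM in HKO and 51.5 ± 6.41 FPKM in flox/flox livers) and Aqp8 (32.2 ± 2.66 and 49.3 ± 11.5 FPKM).

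Of 8 genes listed as uptake carriers, all tested, 5 fell and 0 rose, with a median difference of -1.16 that stayed below 0 under all 4 other scalings (-1.09 to -0.66). Median of ratios and both common sums called 4 lower, and quantile normalization called 2. Slco1a1, an organic anion carrier, averaged 26.0 ± 8.89 FPKM in HKO and 146 ± 6.995 FPKM in flox/flox livers. Slc10a1 averaged 103 ± 19.2 FPKM in HKO and 343 ± 26.3 FPKM in flox/flox livers. The other falls in this list were Slc22a7, Slco1b2 and the bile acid CoA ligase gene Slc27a5, at -2.17, -1.42 and -0.90. The Slc22a7 call (limma adjusted p = 0.049) was kept in only 2 of 17 alternatives.

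Of 10 tested genes of bile acid synthesis and conjugation 4 fell and 0 rose (median -0.55). Each of the 4 other scalings called 2 genes of the list lower, and the common sums also called 2 and 1 higher. The median was -0.48 with median of ratios, -0.10 after quantile normalization and -0.06 and -0.15 on the common sums. In the same order the median of all tested genes was -0.004, -0.03, 0.34 and 0.26. Cyp7b1, of the alternative pathway, fell by 3.33 and averaged 17.1 ± 13.9 FPKM in HKO and 167 ± 98.6 FPKM in flox/flox livers. Cyp27a1, which oxidises the sterol side chain, averaged 144 ± 6.28 FPKM in HKO and 375 ± 57.8 FPKM in flox/flox livers (log2 difference -1.37). Scp2 and Hsd17b4, of peroxisomal side-chain shortening, were the other 2 calls, kept in 6 and 3 of 17 alternatives.

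Among 15 regulators of efflux genes 1 rose and 2 fell. The riser was Nfe2l2, which encodes NRF2, at 22.5 ± 2.51 FPKM in HKO and 14.5 ± 0.402 FPKM in flox/flox livers (log2 difference 0.59, limma adjusted p = 0.028). Nr1i3, the gene of CAR, fell to 3.27 ± 0.914 FPKM in HKO livers, against 12.3 ± 4.44 FPKM in flox/flox livers (log2 difference -1.61, limma adjusted p = 0.023), and Nr1h4 fell as given above. The list's median was -0.17 as deposited and 0.27 and 0.19 on the common sums. It lay below the median of all tested genes each time, which was -0.06, 0.34 and 0.26 in the same order.

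Of 9 tested enzymes that NRF2 controls 2 rose, Hmox1, which degrades heme, at 29.3 ± 7.43 FPKM in HKO and 8.77 ± 4.57 FPKM in flox/flox livers, and the quinone reductase gene Nqo1, at 6.62 ± 1.52 FPKM in HKO and 3.51 ± 0.502 FPKM in flox/flox livers. The malic enzyme gene Me1 fell to 16.5 ± 2.31 FPKM in HKO livers, against 59.7 ± 25.9 FPKM in flox/flox livers, a call kept in 7 of 17 alternatives. After quantile normalization the list held 2 higher and 0 lower genes by limma, and on each common sum 4 higher and 0 lower. Those sums called 28.2% and 21.3% of all tested features higher. As deposited, 4 genes of the list lay higher in HKO without overlap and 3 lower, against 16.8% and 24.7% of tested features. None of the 5 tested PXR, CAR and AhR target enzymes passed limma's test, and the most abundant, Cyp3a11, had 583 ± 188 FPKM in HKO and 313 ± 130 FPKM in flox/flox livers (adjusted p = 0.133).

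Of 24 tested scaffold, trafficking and junction genes of the canaliculus 6 rose and 2 fell (median 0.03). The risers were led by components of tight junctions and the cortex. Cldn1 had 40.2 ± 1.92 FPKM in HKO and 12.3 ± 3.96 FPKM in flox/flox livers (log2 difference 1.67, limma adjusted p = 0.016). Cldn3 had 99.3 ± 29.8 FPKM in HKO and 44.7 ± 4.07 FPKM in flox/flox livers. Msn, an actin-membrane linker that hepatocytes largely lack, had 8.68 ± 0.128 FPKM in HKO and 3.32 ± 1.59 FPKM in flox/flox livers, and Ocln, F11r and Stx3 rose as well. Both falls, Tmem30a and the canalicular scaffold gene Slc9a3r1, at 87.4 ± 13.9 FPKM in HKO and 137 ± 8.89 FPKM in flox/flox livers, were lost under all 4 other scalings.

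**Figure D4:**
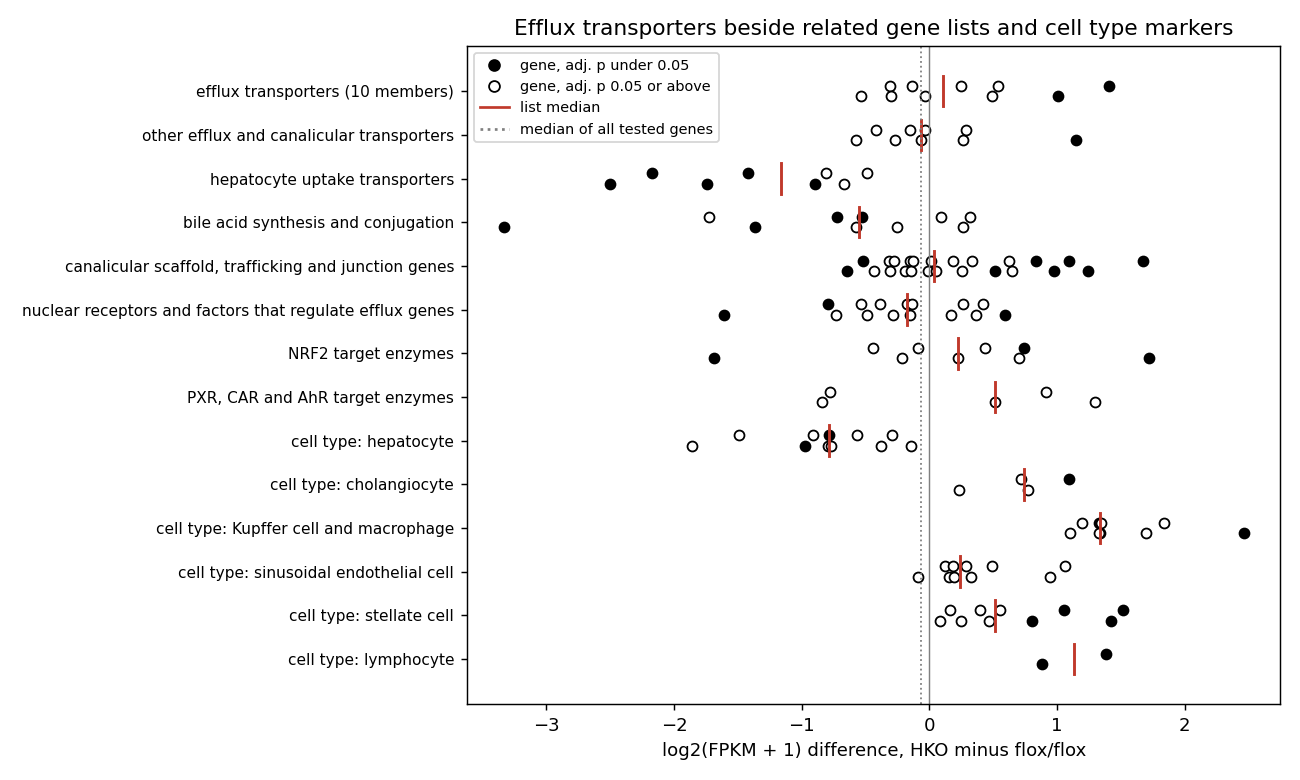
Differences in log2(FPKM + 1), HKO minus flox/flox, of every tested gene among the efflux transporters, in 7 lists of related genes and in 6 lists of cell type markers, with called genes filled, a red bar at each list's median and a dotted line at the median of all tested genes. Uptake carriers lie lowest by median, with -1.16, and the efflux transporters have a median of 0.11 with Abcc4 and Abcb1a at the upper end.

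Markers of other liver cells moved with genotype too, and in whole liver a change in the number of cells of a type and a change in RNA per cell cannot be told apart. Summed FPKM of 10 Kupffer cell and macrophage markers ran from 282 to 355 in HKO and from 51.7 to 197 in flox/flox libraries, with 3 of 9 tested genes called higher. The 11 cholangiocyte markers summed to 48.9 to 81.5 FPKM in HKO and 34.6 to 40.0 FPKM in flox/flox libraries. Most of this sum came from Spp1 and Slc10a2, whose groups overlapped and which were not called. The call among the 4 tested was Sox9, which passed the filter only through the HKO libraries. The 10 lymphocyte markers summed to 4.62 to 10.2 FPKM in HKO and 0.996 to 2.69 FPKM in flox/flox libraries. The 2 of them that were tested, Nkg7 and Ptprc, passed the filter only through the HKO libraries, so their calls add nothing to these sums. These markers were named after their values were seen. Stellate cell markers summed to 127 to 167 FPKM in HKO and 85.0 to 125 FPKM in flox/flox libraries, with 4 of 10 called higher. The endothelial sums overlapped, at 91.4 to 121 FPKM in HKO and 45.5 to 118 FPKM in flox/flox libraries, with 0 of 10 called by limma. No marker in these lists was at 0 in all libraries. Abcc4, Abcb1a and Abcg1 are also expressed outside hepatocytes, and the part of these cells in their rise was not tested. The 11 matched hepatocyte markers summed to 22410 to 43080 FPKM in HKO and 47201 to 78644 FPKM in flox/flox libraries, lowest in HKO replicate 3, with 2 of 11 called lower. Their median difference was -0.78 as deposited and -0.29 and -0.38 on the common sums, which called 1 and 2 lower. The median of all tested genes was 0.34 and 0.26 on these sums. With median of ratios the markers had a median of -0.71 and 2 were called lower. After quantile normalization their median was 0 and 0 were called lower. The marker totals of every cell type depend on the FPKM scale, which itself followed genotype.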

How the data were processed

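Whole-liver mRNA, selected on oligo-dT beads, was sequenced as paired-end reads in 3 HKO and 3 flox/flox libraries, grouped by their titles. The authors deposited FPKM and gene lengths for 54086 features. Per the submitters' processing notes and design text, HISAT2 2.0.5 aligned the reads to GRCm38.p6 and featureCounts 1.5.0-p3 counted them, and DESeq2 1.16.1 is also listed among the authors' tools. In each library the deposited FPKM times gene length were whole multiples of 1 step for 100% of values within 0.01 read, and the denominator followed a median-of-ratios size factor, 1.06 to 1.30 in HKO and 0.858 to 0.892 in flox/flox libraries. The handling of multi-mapping reads is not stated.

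FPKM are not counts, so limma 3.58.1 in R 4.3.3 was fitted on log2(FPKM + 1) with genotype as the only term, a variance trend on intensity, and two-sided p-values adjusted by Benjamini-Hochberg over the 11086 features that averaged 1 FPKM or more. Ratios were compared by exact permutation in scipy 1.17.1. Alternatives changed the pseudocount, filter, scaling, variance model and block, used voom on rebuilt reads, or left out 1 library. Replicates differed by more than read sampling gives (chi-square over its degrees of freedom 17.3 to 95.8). Same-numbered libraries did not deviate together, so numbers were not treated as pairs. All 6 sample columns were used.

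The members and lists were chosen with earlier results of these data known. Named genes were the 10 members, Mettl3, up to 4 called genes per pathway list by size of difference (otherwise the most abundant), and the 3 protein-coding genes most like each called member. Beyond these, a few genes are named as the remaining calls of a list or were chosen after their values were seen. Promoter windows came from RefSeq (GRCm38.p6), which matched 8 of the 10 members, not Atp8b1 and Abcc3. Exon overlaps, shared windows and coding stretches came from a GENCODE annotation of GRCm38. Python 3.11.15, numpy 2.4.6 and pandas 2.3.3 were used.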

Additional observations from a re-analysis of the deposited data

How the results depend on the processing

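Of the 10 members 2 were called higher as deposited. The count was 0 without the filter on low values, 5 on a common sum over all features, 4 on a sum without the 20 most abundant features, and 0 to 1 when 1 library was left out. It was 0 with the replicate block, where Abcc4 had an adjusted p of 0.060 and Abcb1a of 0.081. No member was called lower by limma in any of the 17 alternatives or by voom. Over all genes, 660 were called higher and 761 lower. Without the filter these were 295 and 215, on the common sum 3128 and 189, without the top 20 in the sum 2363 and 221, and with the replicate block 108 and 91. Quantile normalization gave 386 and median-of-ratios scaling 495 lower calls. The share of calls that were higher was 46.4% as deposited, 62.7% after quantile normalization, 60.2% with median of ratios and 94.3% and 91.4% on the sums. Leaving out 1 library gave 17 to 718 higher and 13 to 736 lower calls: 37 and 23 without HKO replicate 1, 65 and 55 without HKO replicate 2, 233 and 173 without HKO replicate 3, 205 and 163 without flox/flox replicate 2, and 17 and 13 without flox/flox replicate 3. The same replicate numbers did not pair libraries: correlations of their deviations were -0.003, -0.10 and -0.067, and no library correlated best with its own number. Abcc4 kept its call in 11 of 17 alternatives and Abcb1a in 9, both above 0 in all. Values whose sign turned had no call as deposited. Abcb11 was 0.082 after quantile normalization, 0.19 and 0.086 on the sums, and -0.57 to 0.014 without 1 library. Abcc2 was 0.36, 0.46 and 0.36 under those scalings, 0.036 with median of ratios and -0.079 to 0.00055 without 1 library. Abcg2 was 0.15 and 0.059 on the sums. Abcg5 was 0.12 after quantile normalization, 0.35 and 0.25 on the sums and -0.33 to 0.12 without 1 library. On the sums the median of all tested genes was 0.34 and 0.26, against -0.06 as deposited. Relative to it Abcb11 was -0.25 as deposited and -0.15 and -0.17 on the sums, and Abcg2 -0.24, -0.19 and -0.20. In the same order Abcc2 was 0.03, 0.12 and 0.10 and Abcg5 -0.08, 0.01 and -0.006. The cause of the sign changes was not tested. Depth limits Abcc4, Abcb1a and Abcb1b in flox/flox livers, where values rest on 12 to 61 reads per library.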

Other observations

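The motif GGACT, the most common form of the sequence context in which the Mettl3 enzyme writes m6A, was counted in the longest coding transcript of each member. Abcc3 held 14 copies, or 2.80 per kilobase, more than 96.9% of 9759 tested coding genes, whose median was 1.05 per kilobase. Abcg5 held 2.55 per kilobase, Abcg8 1.91 and Abcc4 1.75, while the other 6 members held 0.747 to 1.04. Abcb1a, with a difference of 1.01, and Abcb11, with -0.31, held nearly the same density, at 1.001 and 0.995 per kilobase. No m6A was measured in these libraries, so the counts describe letters only.

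HKO replicate 3 stood at one end of the 6 libraries for several members. It was the highest library for Abcc4, Abcc3, Abcb4 and Atp8b1 and the lowest for Abcb11, Abcg5 and Abcg8. Abcc2 in the same library, at 111 FPKM, lay within the flox/flox range of 101 to 112 FPKM.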
